A study of Mus musculus with 6 samples.

Results

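Mpo, Elane, Ctsg, Prtn3, Ms4a3 and Fcnb, transcripts of primary granules and of the neutrophil precursors that make them, were examined in T-ALL, an acute leukaemia of T-cell precursors, of mice with and without Phf6. The 6 genes were taken by symbol from a list drawn up with earlier results of these data known, and all 6 were found among the 23306 genes with an identifier. Each had a normalised read count (reads divided by a size factor per library, as deposited) above 10 in all 6 libraries, so every member passed the filter on low values in both groups. PolyA RNA was sequenced from isogenic T-ALL tumours taken from the bone marrow of C57BL/6 mice, in 3 Phf6 wild-type libraries (WT1 to WT3) and 3 Phf6 knockout libraries (KO1 to KO3). Phf6, whose product is a PHD finger protein of the nucleus, was deleted by a Cre recombinase that tamoxifen induces, and the vehicle was corn oil. The labels do not say which samples received which injection, which promoter drives Cre, how old the mice were, or whether each library had its own animal. P-values here thus measure only the spread between these samples of an isogenic leukaemia, which may be technical.

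Primary (azurophil) granules are the first granules of the neutrophil lineage and are filled at the promyelocyte stage, after which transcription of their genes is shut off and that of secondary and gelatinase granule genes follows. Mpo encodes myeloperoxidase, which makes hypochlorous acid from hydrogen peroxide. Elane (neutrophil elastase), Ctsg (cathepsin G) and Prtn3 (proteinase 3) encode serine proteases that are stored active after an N-terminal dipeptide is removed by cathepsin C. Ms4a3 encodes a membrane protein of the MS4A family that marks granulocyte-monocyte progenitors. Fcnb encodes ficolin B, a carbohydrate-binding lectin of the complement lectin pathway that is made in myeloid precursors.

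The upstream sequences of the 6 genes are shown because these transcripts moved together from library to library, and because the same 6 bases occur in each. All 6 genes matched the RefSeq promoter table (GRCm38.p6), which gave 250 bases before each start site. Each sequence below stops before the annotated exon (GENCODE M21, GRCm38) at that start site, and for Prtn3 the window lies in an intron of a longer non-coding transcript. GGAAGT, the core bound by ETS family factors including PU.1, is in capitals.
Mpo, chr11:87793534-87793580, plus strand: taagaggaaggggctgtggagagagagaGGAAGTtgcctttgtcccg
Elane, chr10:79886062-79886246, plus strand: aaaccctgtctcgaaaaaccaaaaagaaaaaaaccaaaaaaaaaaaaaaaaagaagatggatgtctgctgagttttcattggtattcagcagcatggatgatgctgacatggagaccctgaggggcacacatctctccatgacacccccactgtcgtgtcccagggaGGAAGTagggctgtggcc
Prtn3, chr10:79879417-79879613, plus strand: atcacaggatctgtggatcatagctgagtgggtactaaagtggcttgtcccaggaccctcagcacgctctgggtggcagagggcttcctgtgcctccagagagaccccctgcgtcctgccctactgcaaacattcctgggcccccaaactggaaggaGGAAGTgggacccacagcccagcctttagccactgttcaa
Ctsg, chr14:56102575-56102824, minus strand: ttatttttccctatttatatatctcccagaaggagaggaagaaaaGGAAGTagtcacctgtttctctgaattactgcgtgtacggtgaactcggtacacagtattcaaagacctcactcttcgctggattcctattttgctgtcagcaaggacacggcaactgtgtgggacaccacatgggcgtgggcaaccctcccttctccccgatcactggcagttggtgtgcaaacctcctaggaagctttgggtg
Ms4a3, chr19:11640852-11641101, minus strand: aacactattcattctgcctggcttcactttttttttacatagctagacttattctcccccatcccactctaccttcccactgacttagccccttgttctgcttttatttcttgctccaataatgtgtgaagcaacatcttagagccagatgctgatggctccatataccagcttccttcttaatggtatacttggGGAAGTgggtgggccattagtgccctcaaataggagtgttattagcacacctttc
Fcnb, chr2:28084886-28085128, minus strand: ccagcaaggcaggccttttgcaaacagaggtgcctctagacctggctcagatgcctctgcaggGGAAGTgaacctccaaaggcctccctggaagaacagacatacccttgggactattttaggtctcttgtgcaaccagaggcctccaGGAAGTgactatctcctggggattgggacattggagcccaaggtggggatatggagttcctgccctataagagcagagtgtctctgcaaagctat

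GGAAGT stood on the gene's own strand in the upstream window of 6 of 6 genes, against 10.7% of the 32851 windows in the table. Of the patterns searched, it was marked because all 6 windows held it, so this share is a background and not a test. On either strand GGAAGT was in 19.7% of all windows, and in 12 of the 25 windows of the secondary and late granule list. Counted from the RefSeq start, its first base lay at -83 in Elane, -93 in Prtn3, -55 in Ms4a3, -205 in Ctsg, -222 in Mpo, and -187 and -102 in Fcnb. AACGG, a MYB core, was in Elane at -50 and in Prtn3 at -55 and in none of the other windows, against 14.5% of all windows on either strand. TATAA stood at -31 in Elane, -32 in Prtn3 and -37 in Fcnb on the gene's strand and in Ctsg on the opposite strand, against 22.8% of windows. TTNNGNAA, a C/EBP pattern, was in Ms4a3, where it overlaps GGAAGT, and at 2 places in Fcnb, against 36.8% of windows. TGTGGT, the RUNX core, was in Ctsg alone, on the opposite strand, against 14% of windows. All 250 bases before each RefSeq start were searched, whereas the printed sequences stop at the first base that GENCODE places in an exon. For Mpo only 47 bases are printed. The AACGG and TATAA of Elane and the TATAA of Prtn3 lie past the printed bases, as does the end of the Prtn3 AACGG. A match of letters is a description of the window and not a bound site.

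Phf6, the check of the labels, had normalised read counts of 5508, 4240 and 5075 in WT1 to WT3 and 1781, 2337 and 1755 in KO1 to KO3. Reads assigned to genes ranged from 46067511 to 54953145 per library. Libraries of the same group differed by more than sampling noise in every pair (chi-square of 13.1 to 57.5 per degree of freedom). WT2 was the highest wild-type library for all 6 genes, 24 of 27 tested late granule genes and 19 of 20 tested granulocyte-monocyte progenitor genes. It was highest for 6 of 19 T-lineage, 4 of 12 B-cell and 7 of 14 erythroid markers tested, against 40.8% of all tested genes. T-lineage markers were abundant in all libraries, with Cd3e, a T cell receptor chain, between 16560 and 21008 normalised reads. Of the 17993 genes tested with limma and Benjamini-Hochberg adjustment at a threshold of 0.05, 957 rose and 618 fell (8.75% in all). Scaling by library totals alone turned this split into 1213 and 300.

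All 6 primary granule genes were higher in every knockout library than in any wild-type library, an order seen in 15% of tested genes, and all 6 rose by the test, against 5.32% of tested genes. Their median log2 fold change was 2.92, beside -0.01 over all tested genes. Together they had 18.2, 57.8 and 18.0 CPM (reads scaled to TMM effective library sizes) in WT1 to WT3 and 211, 164 and 222 CPM in KO1 to KO3. The lowest knockout value exceeded the highest wild-type value by 2.20-fold for Prtn3 and by 3.65-fold for Ctsg, the extremes of the set. In bulk RNA, fewer cells of a type and less RNA per cell cannot be told apart, so these values do not say whether more cells carried the transcripts or each carried more.

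**Figure D1:**
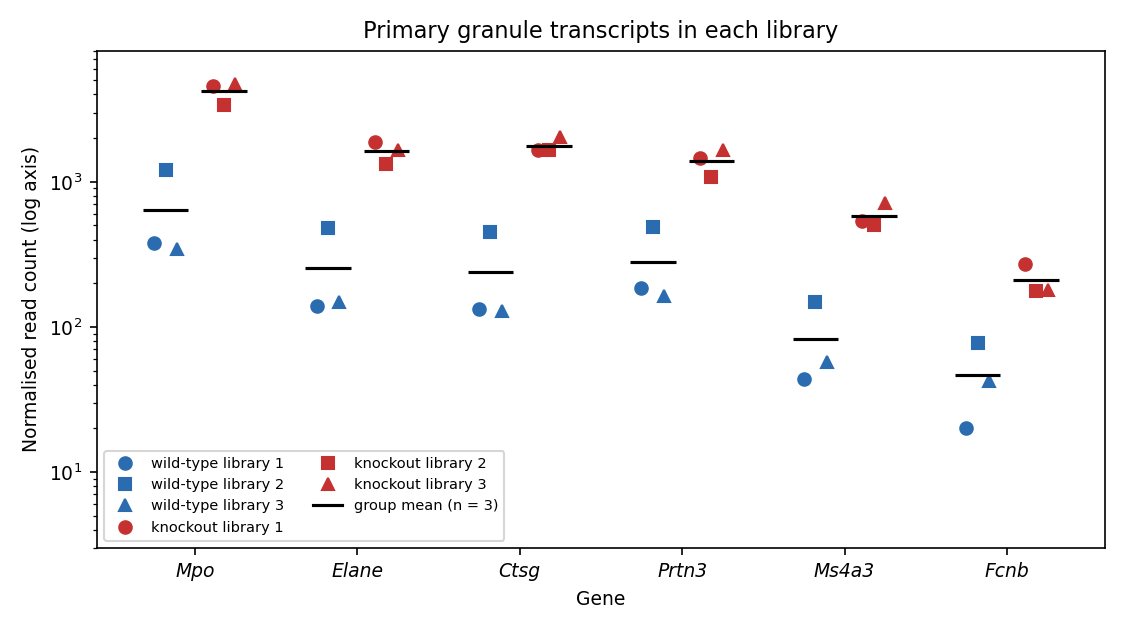
Normalised read counts of the 6 genes (log axis) by library, coloured blue for wild type and red for knockout, marker shapes for library numbers and bars for group means (n = 3). Every red point lies above every blue point of the same gene, and WT2 (blue square) is the highest wild-type library for all 6 genes.

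Mpo (ENSMUSG00000009350; chromosome 11, 87793581 to 87804413, plus strand) had 376, 1205 and 344 normalised reads in WT1 to WT3 and 4568, 3385 and 4688 in KO1 to KO3. The groups did not overlap, and WT2 was the nearest to the knockouts. The means were 642 ± 488 and 4214 ± 720.1 (SD, n = 3 each), a ratio of 6.56 and a log2 change of 2.95 ± 0.55 (SE, by limma; adjusted p = 0.0457). Mpo overlaps Gm11505, an antisense gene, and the strand setting of the counting is not given in the sources used here. Reads of the pair therefore cannot be told apart.

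The 3 serine proteases had similar counts and similar differences. Elane (ENSMUSG00000020125; chromosome 10, 79886247 to 79888215, plus strand) had 139, 482 and 148 normalised reads in WT1 to WT3 and 1869, 1323 and 1659 in KO1 to KO3. Its means were 256 ± 195 and 1617 ± 275 (SD, n = 3 each), and its log2 fold change was 2.88 ± 0.52 (SE, limma; adjusted p = 0.0346). Like Mpo, it was lowest in KO2 among the knockouts.

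Ctsg (ENSMUSG00000040314; chromosome 14, 56099881 to 56102574, minus strand) had 133, 450.3 and 129 normalised reads in WT1 to WT3 and 1645, 1665 and 2021 in KO1 to KO3. The ratio of its means, 7.48, was the largest of the 6 genes, and its log2 fold change was 3.15 ± 0.52 (SE, limma; adjusted p = 0.0278). Cathepsin G cleaves after aromatic and basic residues, whereas elastase and proteinase 3 cleave after small aliphatic ones. Prtn3 (ENSMUSG00000057729; chromosome 10, 79874476 to 79883174, plus strand), which lies 3073 bases from Elane, had 186, 491 and 164 normalised reads in WT1 to WT3 and 1469.8, 1078 and 1652 in KO1 to KO3. Its log2 fold change was 2.47 ± 0.45 (SE, limma; adjusted p = 0.0312). One Prtn3 transcript overlaps the start of Plppr3 on the opposite strand, and Plppr3 was not called (0.22, 95% confidence interval -0.11 to 0.54).

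Ms4a3 and Fcnb were scarcer. Ms4a3 (ENSMUSG00000024681; chromosome 19, 11629496 to 11640851, minus strand) had 44.0, 148 and 56.9 normalised reads in WT1 to WT3 and 535, 505 and 709 in KO1 to KO3. It had the smallest adjusted p of the 6 (log2 fold change 2.96 ± 0.43 SE; limma adjusted p = 0.0103). Fcnb (ENSMUSG00000026835; chromosome 2, 28076378 to 28084885, minus strand) had 20.02, 77.0 and 42.5 normalised reads in WT1 to WT3 and 273, 178 and 179 in KO1 to KO3. The log2 fold change of Fcnb was the smallest of the 6, 2.28 ± 0.43 (SE, limma; adjusted p = 0.0196), and it was highest in KO1, as Elane was.

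Per kilobase of annotated exon, which allows levels to be compared between genes, the order in the knockout libraries was Ctsg (1720.2 ± 205, SD, n = 3), Elane (1643 ± 279.9), Mpo (1231 ± 210.3), Prtn3 (808 ± 169), Ms4a3 (309 ± 58.5) and Fcnb (157 ± 41.1). Ctsg and Elane overlapped in this order, as did Elane and Mpo, while each later neighbour was lower in all 3 knockout libraries than the gene before it in any. With the longest transcript as the length, Prtn3 stood at 1366 ± 286 per kilobase, since its exon union holds non-coding transcripts, and it then overlapped Mpo at 1532 ± 262. In wild type, Elane was at 261 ± 199, Ctsg at 230.0 ± 178, Mpo at 187 ± 142 and Prtn3 at 162 ± 106 per kilobase of exon union, with overlapping ranges. For scale, Cd3e was at 4552 ± 501 per kilobase in knockout.

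The calls, unlike the direction, depended on single libraries. WT2 had 2.47 (Fcnb) to 3.43 (Ctsg) times the mean of the other two wild-type libraries, and it was the highest wild-type library for 6 of 6 genes, against 40.8% of tested genes. Without it, all 6 genes rose by larger amounts, from 2.73 for Fcnb to 3.73 for Ctsg on the log2 scale (limma; 6.42% of tested genes rose). Without WT3, or without KO3, none of the 6 was called (limma; 2.74% and 1% of tested genes rose), although all 6 had an unadjusted p under 0.05 in both fits. Without KO1 Ms4a3 alone was called (4.03% of genes rose), and without WT1 or KO2 Ms4a3 and Fcnb were (2.08% and 3.47%). All 6 log2 fold changes stayed between 1.81 and 3.73 with any library left out. DESeq2 called all 6 as well (7.39% of genes rose), as did limma with TMM scaling (5.31%), library totals (6.74%), a filter of 1 CPM in 3 libraries (5.23%), pseudocounts of 0.5 (5.15%) and 8 (5.49%) and moderation that was not robust (5.08%). With no filter on low values Mpo and Elane were not called (4.43%). The quasi-likelihood test of edgeR on recovered reads called all 6 (5.2% of genes rose; adjusted p = 0.0126 for Mpo), whereas with robust dispersion estimates it called Ms4a3 and Fcnb only (5.32% rose; adjusted p = 0.0705 for Mpo, 0.0607 for Elane, 0.0520 for Ctsg and 0.0522 for Prtn3).

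**Figure D2:**
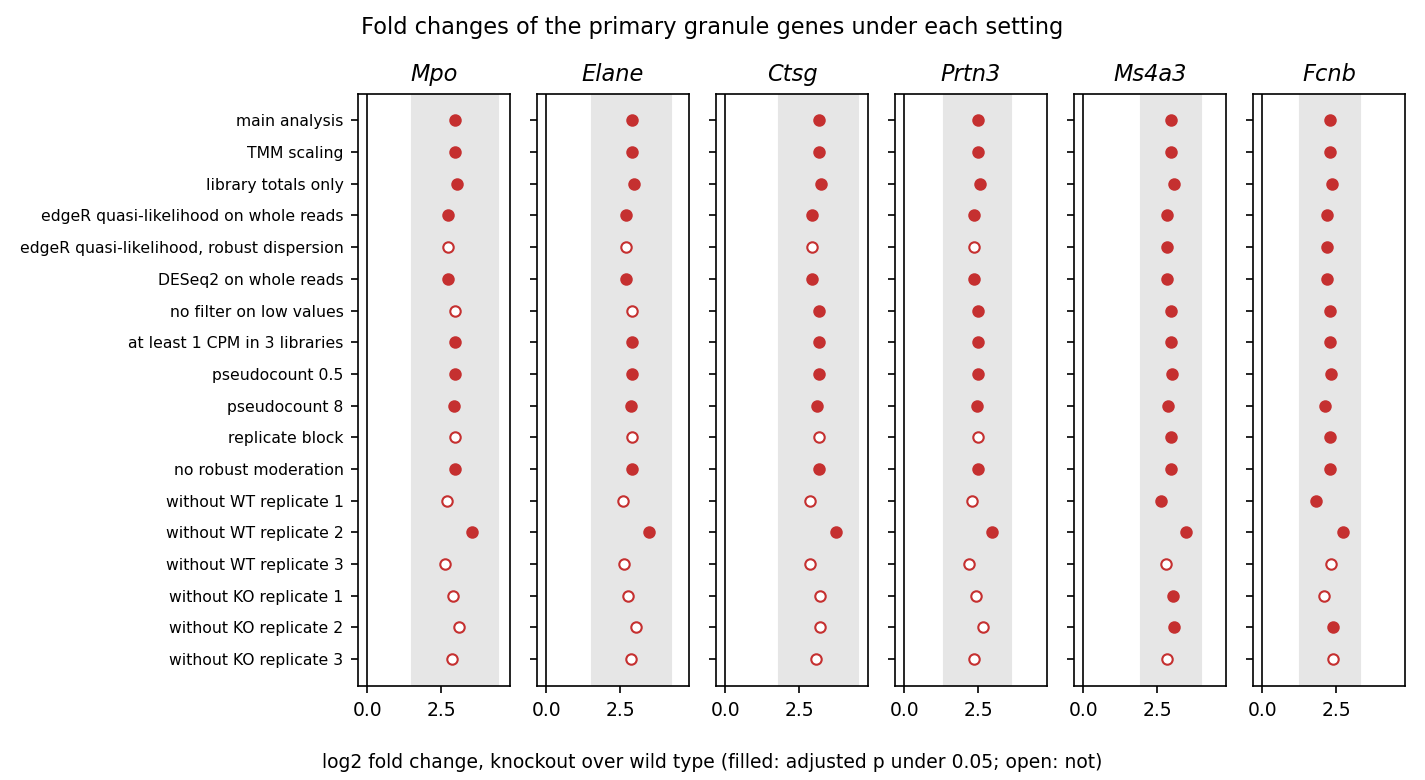
Log2 fold change, knockout over wild type, of each of the 6 genes (columns) in the main analysis and each alternative (lines of points), filled where the adjusted p is under 0.05 and open where it is not, with the 95% confidence interval of the main analysis in grey. All points lie to the right of 0, at 1.81 or more, and most open points of Mpo, Elane, Ctsg and Prtn3 are those with a library left out.

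The mix of the 6 transcripts varied far less than their level. Mpo made up 38.9% to 42.2% of the reads of the 6 genes in wild-type libraries and 41.6% to 44.1% in knockout libraries, while the reads of all 6 ran from 898 in WT1 to 10875 in KO3. Elane stood at 37.0%, 40.0% and 43.0% of Mpo in WT1 to WT3 and at 40.9%, 39.1% and 35.4% in KO1 to KO3, so its groups overlapped. Ctsg was at 35.4% to 37.5% of Mpo in wild type and 36.0% to 49.2% in knockout, and Ms4a3 at 11.7% to 16.5% and 11.7% to 15.1%.

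Prtn3 was the exception, at 49.5%, 40.7% and 47.5% of Mpo in WT1 to WT3 and 32.2%, 31.9% and 35.2% in KO1 to KO3. These groups did not overlap (exact permutation test of log2 ratios, two-sided, p = 0.1, the lowest possible with 3 against 3; 0.5 after Benjamini-Hochberg adjustment over 5 ratios), and this permutation test cannot reach 0.05 with so few libraries. Fcnb was at 5.32% to 12.3% of Mpo in wild type and 3.81% to 5.98% in knockout, where WT3 had the high value, on 47 Fcnb reads.

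**Figure D3:**
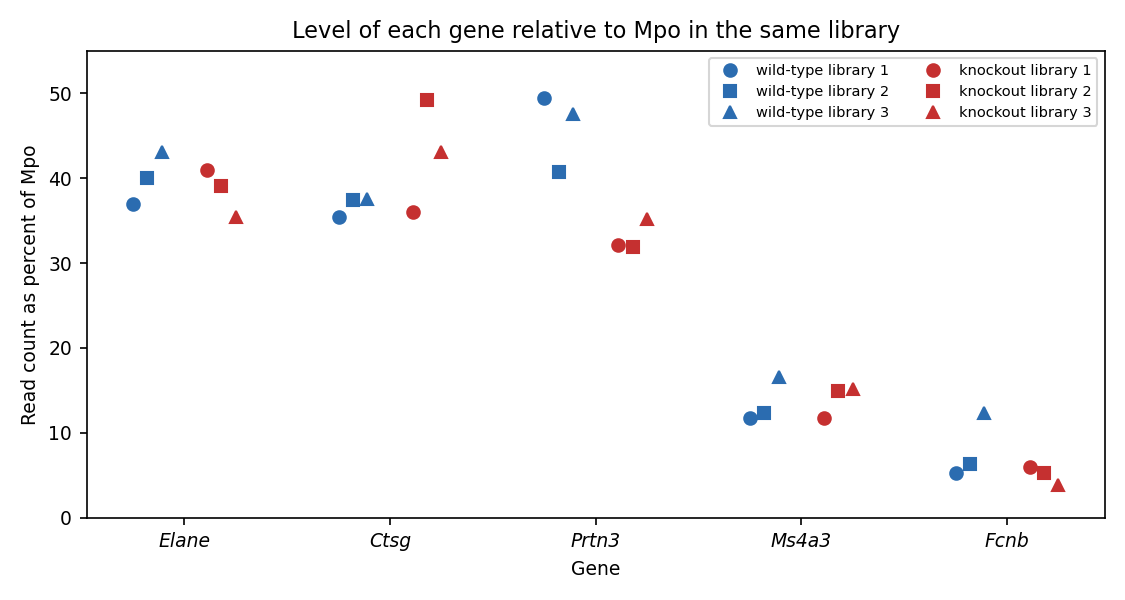
Normalised read count of Elane, Ctsg, Prtn3, Ms4a3 and Fcnb as a percent of Mpo in the same library, on a linear axis from 0, with wild-type libraries in blue and knockout libraries in red. Blue and red overlap for 4 genes, and for Prtn3 the red points, at 31.9% to 35.2%, lie below the blue ones, at 40.7% to 49.5%.

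Among the knockout libraries, primary and later granule genes were ordered differently. This order rests on 1 library, KO2, and genes that move together are not separate observations of it. KO2 was the lowest of the knockouts for 5 of the 6 primary granule genes, against 32.4% of tested genes, and the median ratio of library 2 to the mean of the other two was 0.768. In the list of 27 secondary and late neutrophil granule genes, library 2 was the highest knockout for 21, against 35.4% of tested genes, with a median ratio of 1.24. The ratios ran from 0.691 to 0.908 for the primary granule genes and from 0.852 to 3.76 for the late list, so their ranges overlapped. Library 2 was also highest for 12 of 20 tested granulocyte-monocyte progenitor genes (lowest for 1, median ratio 1.10). It was highest for 10 of 16 promyelocyte transcription factors (lowest for 1). Among 16 tested other contents of primary granules it was highest for 5 and lowest for 7. Ngp, the neutrophilic granule protein, had 14909, 16158 and 10904 normalised reads in KO1 to KO3. Mpo as a percent of Ngp was 30.6%, 20.9% and 43.0% in KO1 to KO3 and 31.8%, 23.9% and 15.5% in WT1 to WT3. These ranges overlapped between groups, as did those of Mpo against Camp, a cathelicidin gene, and S100a8, a calprotectin subunit.

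Against Ltf, the lactoferrin gene of secondary granules, Mpo was at 52.9%, 55.5% and 31.8% in WT1 to WT3 and at 104%, 74.2% and 146% in KO1 to KO3. These groups did not overlap (the same exact permutation test, p = 0.1, the lowest possible here; 0.4 adjusted over 4 such ratios). Of the 27 late granule genes 9 rose (33.3%, against 5.32% of all tested genes) and none fell, and the median log2 fold change was 2.22. The edgeR test called 21 of them higher (77.8%, against 5.2%), and 8 with robust dispersion estimates. With limma the calls were 1 without KO3, 2 without WT3, 3 without KO2, 5 without KO1, 6 without WT1 and 22 without WT2.

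**Figure D4:**
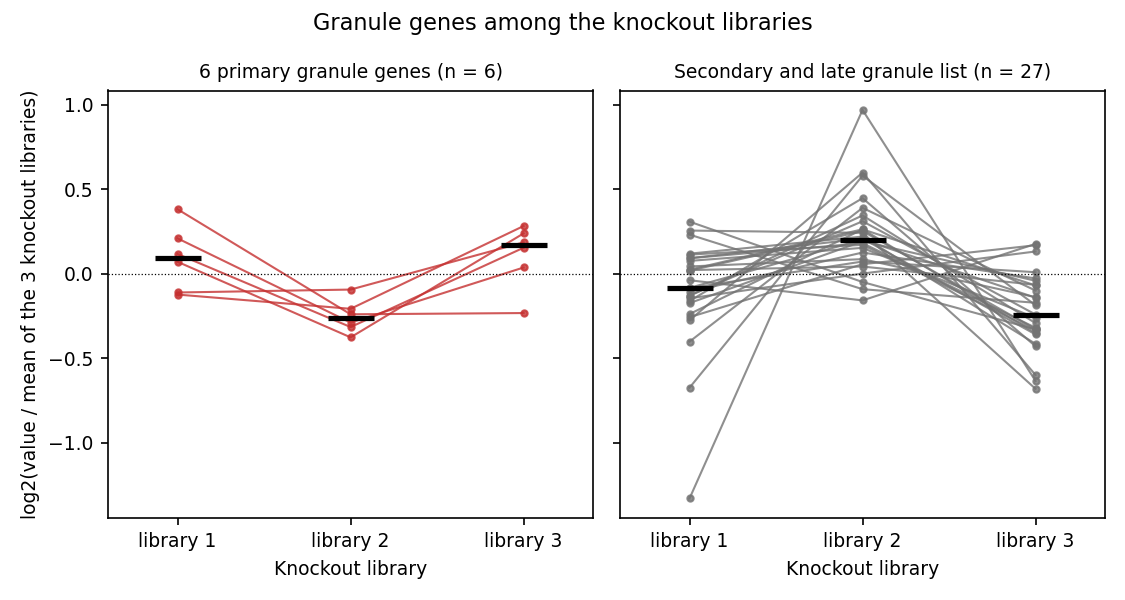
Log2 of each gene's normalised read count over its mean in the 3 knockout libraries, one line per gene, for the 6 primary granule genes (left) and the 27 tested secondary and late granule genes (right), with black bars for medians. Library 2 is the lowest of the 3 for 5 of 6 genes on the left and the highest for 21 of 27 on the right.

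Other contents of primary granules differed less as a list. Of 16 tested members of this list 3 rose and none fell (limma), which is 18.8% against 5.32% of all tested genes. The log2 fold change was above 0 for 13 of the 16, with 0.16 as the median. Every knockout library was above every wild-type library for 5 of the 16, against 15% of tested genes. Several members were abundant in wild type already, among them Man2b1 (mean of 8809 normalised reads), Gusb (5764) and Ctsd (4308), beside 642 for Mpo. The part that leukaemia cells had in these levels was not tested. DESeq2 called 5, and limma called 0 without WT1 or KO3 (4 and 5 at an unadjusted p under 0.05), 1 without WT3 or KO2, and 5 without WT2. Cd63, a tetraspanin of granule membranes, had 68.1, 176 and 66.0 normalised reads in WT1 to WT3 and 426, 423 and 398 in KO1 to KO3 (log2 fold change 2.14 ± 0.35 SE; limma adjusted p = 0.0111). The macrosialin gene Cd68 (0.55) and Hexa, a subunit of lysosomal beta-hexosaminidase (0.80), rose as well. Prss57, the fourth neutrophil serine protease, had 406, 523 and 505 normalised reads in wild type and 565, 492 and 524 in knockout, so its groups overlapped (log2 fold change 0.15, 95% confidence interval -0.16 to 0.45; limma adjusted p = 0.557). Bpi, the bactericidal permeability-increasing protein gene, was not called either (-0.27). Lyz2, a lysozyme gene of myeloid cells, had 1039, 2552 and 806.2 normalised reads in wild type and 3576, 7492 and 4941 in knockout and was not called by limma (1.98; adjusted p = 0.111) but was by edgeR (adjusted p = 0.0344).

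Genes of granule protein processing and sorting, and protease inhibitor genes of any target, were mixed. In the list of processing, sorting and inhibitor genes 4 of 14 tested members rose (28.6%, against 5.32% of all tested genes). In the same list 1 fell (7.14%, against 3.43%), and the median log2 fold change was 0.15. The 5 calls became 0 without WT3 or KO3 (8 and 6 at an unadjusted p under 0.05), 1 without WT1, 2 without KO1 and 3 without KO2. Serpinb1a, the cytosolic inhibitor of elastase, cathepsin G and proteinase 3, had 100.1, 362 and 169 normalised reads in WT1 to WT3 and 722, 733 and 789 in KO1 to KO3 (2.02 ± 0.44 SE; limma adjusted p = 0.0440). Slpi, the secretory leukocyte protease inhibitor gene, rose by 2.53, the serpin gene Serpinb6a by 0.45 and Cst3, cystatin C, by 0.57. The remaining inhibitors with a test, Serpina3g (0.44) and Cst7 (0.23), were not called, and Serpina3f was too scarce to test. Ctsc, cathepsin C itself, was at 1848 ± 112 in wild type and 1923 ± 145 in knockout (0.06, 95% confidence interval -0.15 to 0.27), and Hax1, which is mutated in a form of congenital neutropenia, fell (-0.42).

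Among 16 transcription factors of promyelocytes 4 rose (25%, against 5.32% of all tested genes) and 1 fell (6.25%, against 3.43%). The 5 calls became 0 without KO3 (7 at an unadjusted p under 0.05), 2 without WT1 and 3 without WT3 or KO2. Spi1, which encodes PU.1, had 96.1, 236 and 94.0 normalised reads in WT1 to WT3 and 577, 743 and 603 in KO1 to KO3 (2.29 ± 0.34 SE; limma adjusted p = 0.00964). Cebpd (1.58), Zeb2 (2.01) and Gata2 (1.82) rose too, and Runx1, which is expressed across haematopoietic lineages, fell (-0.55). Gata2 had at most 7.90 normalised reads in wild type and passed the filter on low values only through the knockouts. Cebpe, a factor of the promyelocyte to myelocyte step, had 22.02, 102.7 and 28.0 normalised reads in wild type and 211, 184 and 159 in knockout and was not called (2.13; limma adjusted p = 0.0520). Gfi1, mutated in severe congenital neutropenia and also expressed in T cells, was not called (0.16, 95% confidence interval -0.03 to 0.35), nor was Myb (-0.17). The list of granulocyte-monocyte progenitor genes had 17 rises (85%, against 5.32%) and no fall among 20 tested members and a median log2 fold change of 2.09. Leaving out KO3 lowered the calls to 10. Csf2rb, the beta chain of the GM-CSF receptor, rose by 2.32, Csf2ra, its alpha chain, by 1.09, the lectin receptor gene Clec12a by 2.497 and Rgs18, a regulator of G protein signalling, by 2.47.

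Markers of other bone marrow cells were read beside these values. Of 19 tested monocyte and macrophage markers 7 rose (36.8%, against 5.32% of all tested genes), with summed levels of 76.0 to 119 CPM in wild type and 155 to 225 CPM in knockout. Ctss (1.66), Lgals3 (1.45), Ms4a6c (1.60) and F13a1 (1.95) were among them, while C1qa, a gene of resident macrophages, was not called (-0.32). The 7 calls became 0 without KO3 (9 at an unadjusted p under 0.05), 2 without WT1 and 3 without WT3 or KO2. Of 6 tested mast cell, basophil and eosinophil markers 4 rose (66.7%), namely Kit (2.81), Gata2 (1.82), Ear2 (1.59) and Mcpt8 (2.998), and their list had sums of 8.02 to 15.5 CPM in wild type and 16.7 to 37.3 CPM in knockout. These 4 calls became 0 without KO3 (4 at an unadjusted p under 0.05), 1 without WT1 or WT3 and 2 without KO2. The list holds 20 genes, of which 10 had a row, and Kit and Gata2 are in other lists here as well. Gata2 had at most 7.90 normalised reads in wild type, and Mcpt8 was above 10 in WT2 alone of the wild-type libraries. Both passed the filter on low values only through the knockouts, so the 66.7% is a description and not a test. Ms4a2, a chain of the high-affinity IgE receptor, had at most 12.5 normalised reads. Of 14 tested erythroid markers none was called by limma, against 8.75% of all tested genes. By limma 1 had an unadjusted p under 0.05, while edgeR called 0 and DESeq2 called 1. The log2 fold change was above 0 for 12 of these 14 markers, with a median of 0.29. The sum of the erythroid list was 390.2 to 481 CPM in wild type and 357 to 415 CPM in knockout. A sum weights abundant genes most. Of 12 tested B-cell markers 8 rose (66.7%) and 1 fell (8.33%, against 3.43%), and the median log2 fold change was 1.37. The gene that fell was Ighm, the mu heavy chain (-0.51), which held 89.5% to 98.3% of the summed level. Without Ighm the sum was 7.14 to 9.54 CPM in wild type and 15.3 to 25.6 CPM in knockout. The 9 calls became 0 without KO3 (10 at an unadjusted p under 0.05), 4 without WT1 or WT3 and 5 without KO2. Of 19 T-lineage markers 3 fell (15.8%, against 3.43% of all tested genes) and none rose. The 3 were Cd247 (-0.57), Cd5 (-0.48) and Tcf7 (-0.49), and 1 marker was called without WT1, WT3 or KO3. The sum of the late granule list was 1336 to 1597 CPM in wild type and 2385 to 2805 CPM in knockout. The part that other cells had in the levels of the 6 genes was not tested.

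**Figure D5:**
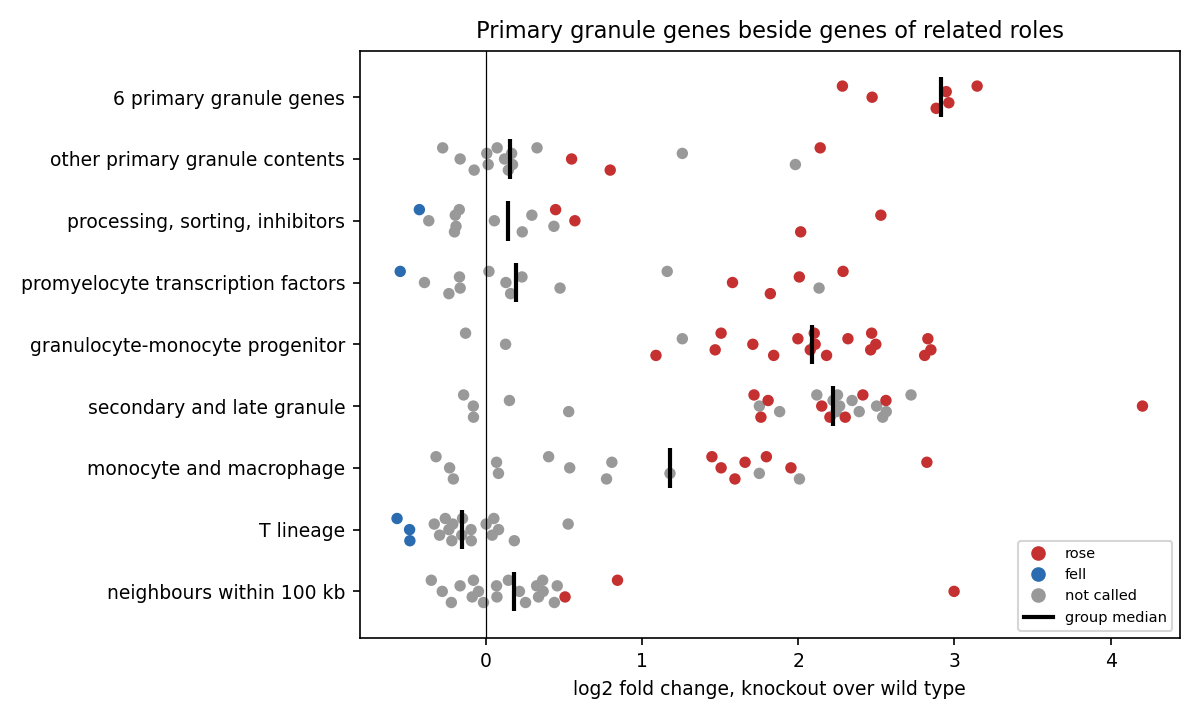
Log2 fold change, knockout over wild type, of tested genes in each group, one point per gene, red where it rose, blue where it fell and grey where it was not called, with black bars for medians. The medians are 2.92 for the 6 primary granule genes, 0.16 for other primary granule contents, 2.09 for progenitor genes and 2.22 for secondary and late granule genes.

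Genes near the members on the chromosome were read next. Within 100000 bases of a member, 40 other protein-coding genes are annotated, 22 of which were tested. Of these, 3 rose and none fell, Mks1 near Mpo (0.51), Mcpt8 near Ctsg (2.998) and Col5a1 near Fcnb (0.84), which is 13.6% of those tested against 5.32% of all tested genes. Non-coding genes included, 5 of 29 rose (17.2%), among them F730016J06Rik (1.7997) and Gm13372 (1.30), so that all 3 tested genes near Fcnb rose. F730016J06Rik had at most 9.88 normalised reads in wild type and passed the filter on low values only through the knockouts. Gm13372 lies within Col5a1 on the opposite strand, and its reads cannot be told from those of Col5a1. The 3 rises near Fcnb are thus not separate observations, and an effect of the locus was not tested. Around Elane and Prtn3 limma called none of the 13 tested protein-coding genes, against 8.75% of all tested genes. Of these 13, 3 had an unadjusted p under 0.05 by limma, and edgeR and DESeq2 called 0. Cfd, complement factor D, which starts 2638 bases after Elane ends, had at most 7.90 normalised reads in any library. Mcpt8, a mast cell protease family gene of basophils that lies 14608 bases from Ctsg, had 3.003, 17.8 and 0 normalised reads in WT1 to WT3 and 37.6, 57.1 and 41.1 in KO1 to KO3 and lost its call in edgeR (adjusted p = 0.0651). Mcpt8 passed the filter on low values only through the knockouts. Lpo, the lactoperoxidase gene 2015 bases from Mpo, had at most 5.22 normalised reads.

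Genes whose pattern over the 6 libraries was most like the members' were found by the root mean square difference of centred log2 values from the mean profile of the 6 genes. The 8 nearest of 11073 genes compared differed by 0.18 to 0.26, where the members themselves differed from their own mean by 0.09 (Elane) to 0.40 (Fcnb) and the median gene by 1.52. Among them, in order, were Ly6c2, a surface antigen of monocytes and their precursors, C1rl, Kit, the stem cell factor receptor, Svip, Pygl, the liver form of glycogen phosphorylase, F10, coagulation factor X, and Il18rap, an interleukin 18 receptor chain. Ly6c2 had 157, 476 and 149 normalised reads in WT1 to WT3 and 1488, 1689 and 1618 in KO1 to KO3. The likeness is over 6 libraries that share the same group difference, and it is a description.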

How the data were processed

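PolyA RNA of 6 libraries was sequenced as read pairs. Reads were handled with bcl2fastq 1.8.4, STAR 2.6.0a, featureCounts and DESeq2 on GRCm38, per the submitters' processing notes, which give no role or order. The authors deposited a signal per gene, and every value was a whole number of reads times 1 step per library (100% whole within 0.01), that is, counts divided by a size factor. Of 23314 rows, 8 without an identifier were left out (at most 0.00106% of reads). Genes reaching a value of 10 in 3 or more libraries were tested on log2(value + 2) with limma 3.58.1 (trend, robust) in R 4.3.3, with Benjamini-Hochberg adjustment over 17993 genes. Fold changes are on that scale, which understates those of low genes. Recovered reads were tested with edgeR 4.0.16 and DESeq2 1.42.0. Scripts were tested on simulated data. The members and lists were chosen with earlier results of these data known. Genes named from a list are up to 4 with the smallest p, and whole small groups. Exceptions, named after their values were seen, are Serpinb1a, Ctsc, Prss57, Bpi, Lyz2, Man2b1, Gusb, Ctsd, Gata2, Cebpe, Gfi1, Myb, C1qa, Ms4a2, Ighm, Ngp, Camp, Ltf, S100a8 and the genes near members. Neighbours were taken by position from GENCODE M21. Intervals cover the spread between these samples only. Of the genes most like the members, 1 is not reported here.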

Additional observations from a re-analysis of the deposited data

How the results depend on the processing

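No log2 fold change of the 6 genes changed sign under any alternative. All 6 calls held under TMM scaling, library totals, edgeR, DESeq2, a filter of 1 CPM in 3 libraries, pseudocounts of 0.5 and 8, and moderation that was not robust. With edgeR and robust dispersion estimates, an alternative chosen after seeing the data, 2 of 6 were called, and the log2 fold changes of those not called were 2.74 (Mpo), 2.68 (Elane), 2.93 (Ctsg) and 2.34 (Prtn3). With no filter on low values, where more genes are tested, Mpo (2.95; adjusted p = 0.0634) and Elane (2.88; adjusted p = 0.0540) were not called by limma. With the replicate number as a block, limma called 2568 genes (8.11% of tested genes rose) and 2 of the 6, without Mpo (2.95), Elane (2.88), Ctsg (3.15) and Prtn3 (2.47). The numbers were not taken as pairs, since deviations of same-numbered libraries correlated at 0.01, 0.50 and 0.14. WT1 correlated best with KO3 and WT3 with KO1. The 0.50 of WT2 with KO2 was the highest of any pair, and what these libraries share was not tested. With 1 library left out, limma called 253 to 1941 genes, and 0 to 6 of the 6. The log2 fold changes then ranged from 2.63 to 3.53 for Mpo, 2.57 to 3.46 for Elane, 2.84 to 3.73 for Ctsg, 2.18 to 2.97 for Prtn3, 2.62 to 3.47 for Ms4a3 and 1.81 to 2.73 for Fcnb. The cause of the lost calls was not tested. Counts of called genes in the lists stayed within 1.5 times the main count in 178 of 255 cases. Depth limits Fcnb most, with 20 reads in WT1.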
